A study of Mus musculus with 46 samples.

Results

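The genes of hepatic insulin signalling and the targets of the transcription factor FoxO1 were followed through RNA level, H3K27 acetylation, Hnf4α and C/EBPα binding and promoter contacts in mouse liver. The set held 10 genes, chosen by symbol: the insulin receptor Insr, its adaptors Irs1 and Irs2, the PI3-kinase subunit Pik3r1, the kinase Akt2, the Akt-binding pseudokinase Trib3, the transcription factor Foxo1, and the secreted or signalling products Igfbp1, Igfbp2 and Socs2. These were 10 of the 25494 genes in the count table, and all 10 passed the filter on low counts that left 13494 genes for testing. The livers came from male C57BL/6 mice, bought at 5 weeks of age and then fed for 20 weeks either a lipid-rich diet (LD, labelled high fat, 60% of energy as lipid) or a carbohydrate-rich diet (CD, labelled low fat, 70% of energy as carbohydrate). No transgene or deletion is named for either group, and CD mice were the comparison group. RNA was sequenced from 5 mice per diet, H3K27ac was profiled in 3 per diet, Hnf4α and C/EBPα were profiled in 2 per diet each, and promoter capture Hi-C (PCHi-C) was done in 2 per diet and pooled. The sources used here do not say whether the same mice served several assays.

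Insulin binds its receptor on hepatocytes, the receptor phosphorylates the Irs adaptors, and these recruit PI3-kinase, whose lipid product activates Akt. Akt phosphorylates FoxO1 and keeps it out of the nucleus, so that genes which FoxO1 activates in fasting, such as Igfbp1, Irs2 and those of glucose production, fall after a meal. Insulin-like growth factor binding proteins (Igfbp) are secreted by the liver and bind IGF-1, and Socs2 limits signalling by the growth hormone receptor.

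All positions are those of the mm9 build. Several regulatory sequences carried the results below and are shown here on the strand of their gene, with matches to searched letters in capitals. Capitals in the Igfbp1 promoter (chr11:7097540-7097789, the 250 bases before the start site) mark CAAAACAA, the core letters of the insulin response element through which FoxO1 acts on this gene. A second sequence, chr11:7092782-7093019, lay -4771 bp from the same start site and held a Hnf4α peak in all 4 samples. It overlapped the highest C/EBPα locus near any of the 10 genes, and its capitals mark CAAAACAA and a match to TTGCNNAA, the letters of a C/EBP site. An intron of Insr held the tallest Hnf4α locus of the set (chr8:3256621-3256848), with capitals at TTGCNNAA and at TGTTTAC, the letters of a FoxO site. A locus upstream of Irs1 (chr1:82290774-82291031, -2760 bp) held a C/EBPα peak in both LD samples and in no CD sample, and both of its capital runs match TTGCNNAA, the latter on the opposite strand. The final sequence is the Hnf4α locus at -14211 bp from the start site of Igfbp2 (chr1:72856616-72856843), whose raw heights overlapped between the diets although it was called after centring, and which matched none of the searched letters.
Igfbp1 promoter: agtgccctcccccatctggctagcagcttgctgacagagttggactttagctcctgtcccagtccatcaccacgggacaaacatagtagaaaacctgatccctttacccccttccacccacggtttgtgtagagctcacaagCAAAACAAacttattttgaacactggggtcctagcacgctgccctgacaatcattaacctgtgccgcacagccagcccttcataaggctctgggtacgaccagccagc
Igfbp1 locus at -4771 bp: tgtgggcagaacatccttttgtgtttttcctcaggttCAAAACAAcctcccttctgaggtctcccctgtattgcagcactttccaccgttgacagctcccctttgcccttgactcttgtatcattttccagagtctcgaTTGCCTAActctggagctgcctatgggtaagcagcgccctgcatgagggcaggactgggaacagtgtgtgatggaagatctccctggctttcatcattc
Insr intron locus: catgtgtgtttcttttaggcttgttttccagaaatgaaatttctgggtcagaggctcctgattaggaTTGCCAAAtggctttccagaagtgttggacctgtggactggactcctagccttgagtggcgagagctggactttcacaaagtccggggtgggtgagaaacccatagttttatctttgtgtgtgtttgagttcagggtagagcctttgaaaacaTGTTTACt
Irs1 locus at -2760 bp: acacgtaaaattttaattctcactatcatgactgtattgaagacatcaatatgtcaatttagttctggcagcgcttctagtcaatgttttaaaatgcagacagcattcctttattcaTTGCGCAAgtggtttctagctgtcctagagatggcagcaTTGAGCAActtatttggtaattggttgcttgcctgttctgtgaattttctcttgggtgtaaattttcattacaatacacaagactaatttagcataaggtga
Igfbp2 locus at -14211 bp: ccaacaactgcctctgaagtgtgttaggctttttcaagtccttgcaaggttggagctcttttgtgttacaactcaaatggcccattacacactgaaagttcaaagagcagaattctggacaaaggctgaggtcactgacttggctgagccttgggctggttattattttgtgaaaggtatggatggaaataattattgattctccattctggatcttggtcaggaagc

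The promoter sequences were read from the genome, and for 7 of the 10 genes the same 250 bases stood in RefSeq's promoter table. RefSeq's table had no promoter of Insr or Socs2, and its Irs2 promoter did not hold the bases read here. Letters were searched on both strands, and a match describes the sequence and shows no binding. Among the 250 bases before all 24655 gene starts, CAAAACAA was held by 2.25%, TGTTTAC by 2.69%, TTGCNNAA by 8.91% and CAAAGTCCA, the letters of a Hnf4α site, by 0.414%. Among the 10 genes, the promoters of Igfbp1 and, on the opposite strand, Irs1 held CAAAACAA, and no promoter held the other letters. In 250 bases at the centre of 23331 Hnf4α loci found in all 4 samples, the shares were 3.65% for CAAAACAA, 7.08% for TGTTTAC, 21.04% for TTGCNNAA and 6.48% for CAAAGTCCA. Of the 90 Hnf4α loci near the 10 genes found in 2 or more samples, 7 held CAAAACAA, 3 TGTTTAC, 22 TTGCNNAA and 2 CAAAGTCCA. Of the 64 such C/EBPα loci, 30 held TTGCNNAA. That share was 48.6% in 250 bases at the centre of the C/EBPα loci found in all 4 samples. Loci near the 10 genes were searched over their whole length, and 48 of the 90 and 32 of the 64 were in all 4 samples. Their counts are therefore not directly comparable with the shares at 250 bases.

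Each mouse gave 31707963 to 39012699 read pairs on genes, and levels are given as CPM (read pairs of a gene scaled to a common library size) after TMM scaling. As bulk liver was sequenced, fewer cells of a type and less RNA per cell cannot be told apart. Hepatocyte markers (4 genes) summed to 76494 to 93829 CPM on LD and 81358 to 97136 on CD, and 1 of the 4 was lower on LD. Most of this sum was Alb (means of 67059 CPM on LD and 70265 on CD). The lower one, Cps1, was at 2757 ± 864 CPM on LD and 6949 ± 1033 on CD (SD, n = 5 each). Macrophage markers (5 genes) spanned 209 to 608 CPM on LD and 219 to 412 on CD, endothelial markers (4 genes) 288 to 408 and 327 to 400.0, and stellate markers (4 genes) 107 to 159 and 74.2 to 111, with 1 gene of each list higher on LD. Lymphocyte markers (4 genes, 1 of them higher on LD) stayed under 4.33 CPM and cholangiocyte markers (3 genes) under 5.69 CPM in every mouse, and adipocyte markers (3 genes) did not exceed 0.0873 CPM. The part of these cell types in the results was not tested.

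The receptor and both adaptors were lower on LD, and so were Foxo1 and Igfbp2. A gene was called when its fold change exceeded 1.2 and its p-value from edgeR's quasi-likelihood test, adjusted by the Benjamini-Hochberg method, was below 0.05. Of the 10 genes, 5 were called, all of them lower on LD, and 5 did not pass, while 24.9% of all tested genes were called, 11.1% lower and 13.8% higher on LD. The median log2 fold change (LD over CD) of the 10 genes was -0.46, beside -0.0019 over all tested genes. For 3 of the 10, the highest LD mouse lay below the lowest CD mouse, and the diets failed to overlap in this way, in either direction, for 18.5% of all tested genes.

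**Figure D1:**
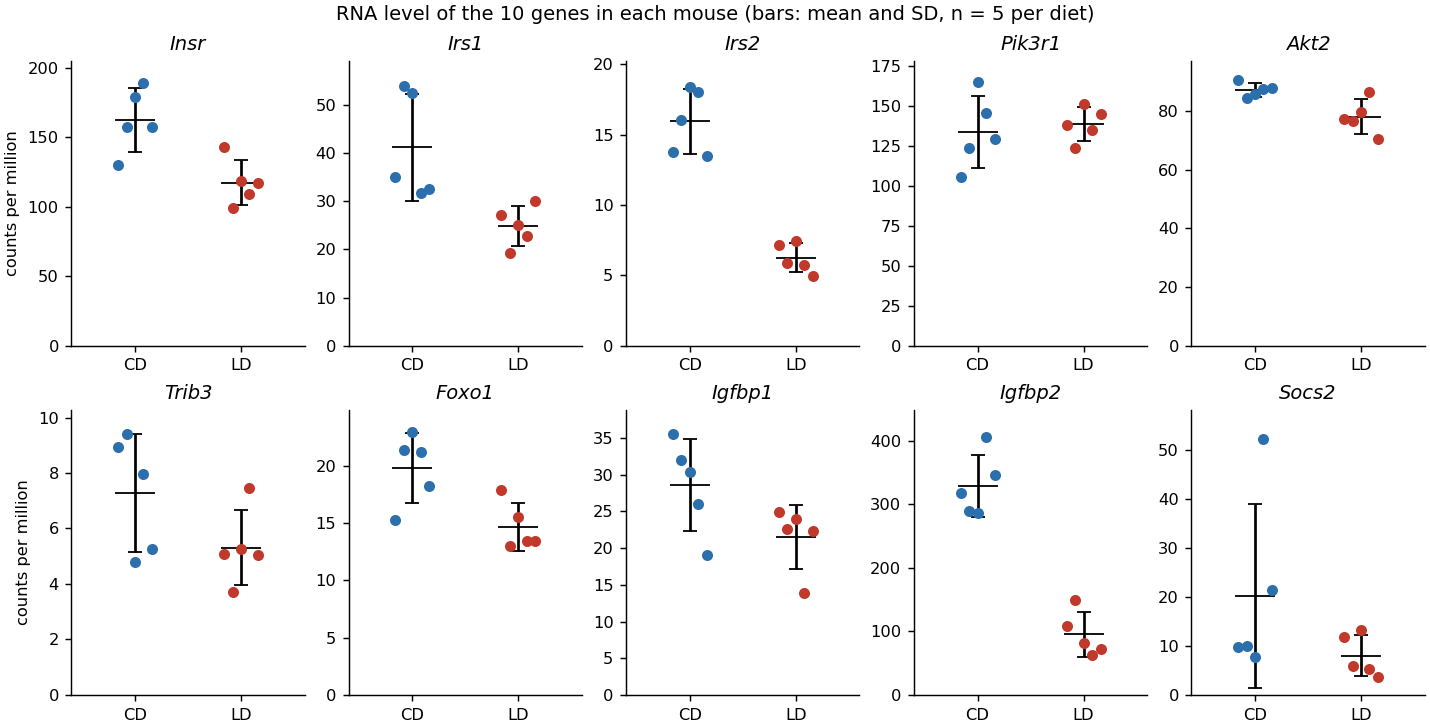
RNA level of the 10 genes in each mouse, in CPM on linear axes from 0, with CD in blue, LD in red and bars for the mean and SD (n = 5 per diet). Irs1, Irs2 and Igfbp2 have no overlap between the diets, and 1 CD mouse stands far above the others for Socs2.

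Insr, the receptor tyrosine kinase at the head of the pathway, measured 143, 98.8, 119, 109 and 117 CPM in LD mice 1 to 5. In CD mice 1 to 5 it measured 130, 157, 179, 189 and 157 CPM. The highest LD mouse, number 1, lay above CD mouse 1, and the other 4 CD mice lay above every LD mouse. Mean levels were 117 ± 16.3 CPM for LD and 162 ± 22.8 CPM for CD (SD, n = 5 each), with a log2 fold change of -0.47 (SE 0.111, edgeR adjusted p = 0.00701).

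Irs1, the adaptor phosphorylated by the receptor, measured 27.03, 19.2, 25.1, 22.8 and 29.9 CPM on LD. On CD the values were 35.1, 53.9, 52.5, 31.6 and 32.6 CPM, so that the diets did not overlap. CD mice 2 and 3 stood apart from the other 3 CD mice. The means were 24.8 ± 4.10 and 41.1 ± 11.1 CPM (SD, n = 5 each), and the log2 fold change was -0.73 (SE 0.177, edgeR adjusted p = 0.0106).

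Irs2, the adaptor whose gene FoxO1 activates in fasting, had a wider gap. The LD mice measured 7.17, 5.91, 7.42, 5.76 and 4.95 CPM. The CD mice measured 13.8, 16.03, 18.4, 18.01 and 13.5 CPM. Every CD mouse was above every LD mouse, with no value in between. The means of 6.24 ± 1.03 and 15.9 ± 2.29 CPM (SD, n = 5 each) gave a log2 fold change of -1.35 (SE 0.128, edgeR adjusted p = 1.86e-05), a level 2.55-fold lower on LD.

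For Pik3r1 and Akt2, the next steps after the adaptors, the diets overlapped. Pik3r1, the regulatory subunit of PI3-kinase, measured 138, 123, 151, 135 and 145 CPM on LD. On CD it measured 105, 124, 165, 145 and 129 CPM, a range that enclosed all LD mice. The log2 fold change was 0.05 (95% interval -0.19 to 0.29, edgeR adjusted p = 0.758).

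Akt2, the Akt isoform that carries much of the insulin signal in liver, measured 77.4, 76.5, 79.8, 86.5 and 70.3 CPM on LD. On CD it measured 90.6, 84.5, 85.9, 87.4 and 87.8 CPM, and LD mouse 4 lay within the CD range. The log2 fold change of -0.16 (95% interval -0.30 to -0.01) did not pass (edgeR adjusted p = 0.0754).

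Trib3, a pseudokinase that binds Akt and is induced in the integrated stress response, was low and variable. The LD mice measured 5.09, 3.70, 5.28, 7.46 and 5.03 CPM. The CD mice measured 8.95, 9.40, 4.78, 7.97 and 5.27 CPM, which overlapped the LD range in mice 3 and 5. The log2 fold change was -0.46 (95% interval -0.96 to 0.04, edgeR adjusted p = 0.139).

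Foxo1, which encodes the factor that Akt holds in the cytoplasm, measured 17.9, 13.0, 15.5, 13.4 and 13.4 CPM on LD. On CD it measured 15.2, 21.4, 22.9, 21.2 and 18.2 CPM. CD mouse 1, also the lowest CD mouse for Insr, fell among the LD mice, and the other 4 CD mice lay above all of them. The means of 14.6 ± 2.06 and 19.8 ± 3.06 CPM (SD, n = 5 each) differed by a log2 fold change of -0.43 (SE 0.119, edgeR adjusted p = 0.0152). When the test was made against a fold change of 1.2 instead of none, Insr and Foxo1 lost their calls (edgeR glmTreat adjusted p = 0.0894 and 0.163), and both also lost them with limma on log2(TPM + 1) (adjusted p = 0.0714 and 0.127), where Irs1 lost its call as well (0.0552).

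Igfbp1, a classical FoxO1 target repressed by insulin, measured 24.9, 22.7, 23.96, 13.9 and 22.3 CPM on LD. On CD it measured 35.5, 32.0, 30.4, 26.01 and 19.1 CPM, so that 4 of the 5 CD mice lay above every LD mouse and CD mouse 5 lay within the LD range. The log2 fold change of -0.41 (95% interval -0.82 to 0.01) did not pass (edgeR adjusted p = 0.116). Without CD mouse 5 it was -0.52 and passed (adjusted p = 0.0263).

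Igfbp2, another binding protein of the IGFs, had the largest difference of the set. The LD mice measured 109, 149, 81.96, 63.1 and 72.4 CPM. The CD mice measured 318, 290.3, 286, 406 and 346 CPM, and the lowest of them stood well above the highest LD mouse. The means of 95.2 ± 34.8 and 329 ± 49.0 CPM (SD, n = 5 each) gave a log2 fold change of -1.79 (SE 0.222, edgeR adjusted p = 0.000319), a level 3.46-fold lower on LD. Leaving out any 1 mouse kept the calls of Irs2 and Igfbp2.

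Socs2, an inhibitor of growth hormone signalling, measured 11.8, 5.91, 13.3, 5.37 and 3.69 CPM on LD. On CD it measured 9.75, 9.95, 7.68, 52.2 and 21.3 CPM. CD mouse 4 was far above all others, and the lowest 3 CD mice lay within the LD range. The log2 fold change of -1.33 (95% interval -2.80 to 0.13) did not pass (edgeR adjusted p = 0.158), and without CD mouse 4 it was -0.60.

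Levels were compared between genes only as the deposited TPM, which takes gene length into account. On LD, Igfbp2 was the most abundant (127 ± 44.6 TPM, SD, n = 5), followed by Akt2 (45.6 ± 1.72), Pik3r1 (35.7 ± 3.87), Igfbp1 (26.99 ± 5.96) and Insr (23.7 ± 3.69). The lower 5 were Socs2 (5.59 ± 2.93), Irs1 (5.16 ± 1.09), Foxo1 (5.0 ± 0.725), Trib3 (4.89 ± 1.15) and Irs2 (2.94 ± 0.448). The ranges over mice of Igfbp1 and Insr overlapped, as did those of neighbours from Socs2 down to Irs2, while Igfbp2, Akt2 and Pik3r1 stood apart from the genes next in order. On CD, Igfbp2 stood at 418 ± 66.1 TPM, Akt2 at 48.3 ± 0.754, and Igfbp1 (33.7 ± 7.02), Pik3r1 (32.7 ± 6.15) and Insr (31.1 ± 5.13) overlapped. Irs2 was at 7.15 ± 1.18 TPM on CD, in 8th place, and last of the 10 on LD.

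**Figure D2:**
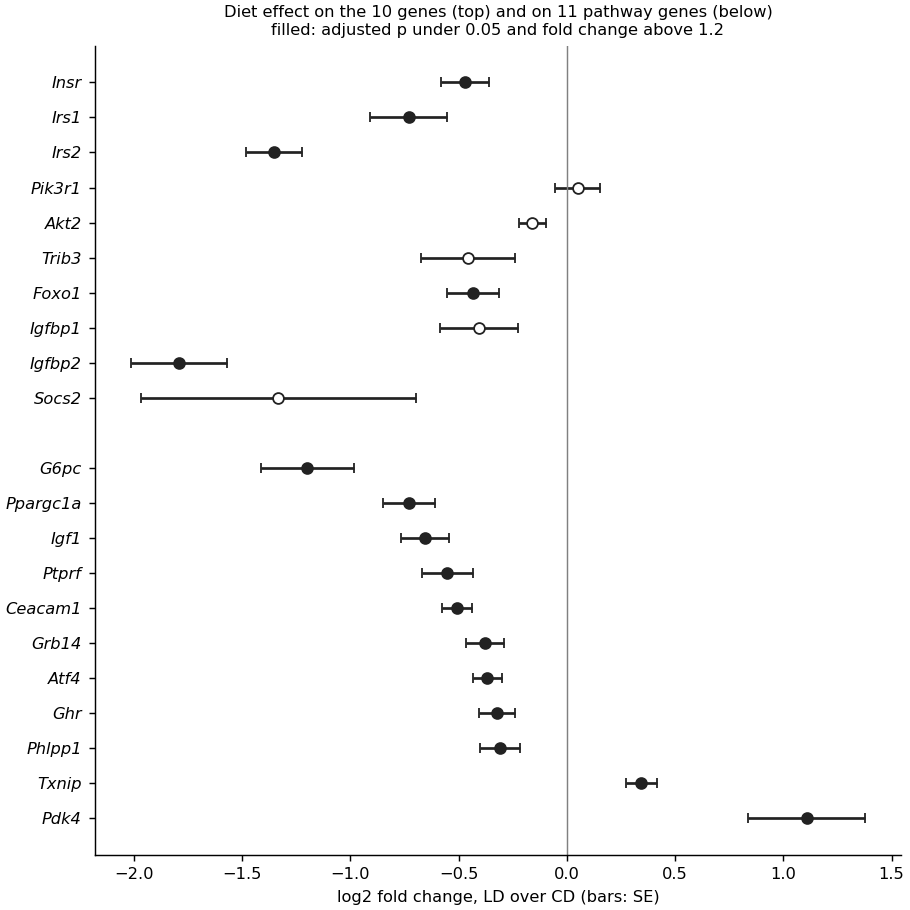
Log2 fold change (LD over CD) with its SE for the 10 genes, above, and for 11 other genes of the pathway list, below, where filled points mark called genes. Of the 5 called members all lie left of 0, whereas the pathway genes lie on both sides, from G6pc at -1.20 to Pdk4 at 1.11.

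Around the 10 genes, a list of 86 further genes of insulin, IGF and growth hormone signalling was measured, of which 84 were tested. On LD, 7 were higher and 13 lower, and 64 did not pass, so that 20 of 84 were called where 24.9% of all genes were. Their median log2 fold change was -0.12. Of the receptor, adaptors and regulators at the membrane, 4 of 15 were lower and 1 higher. Ptprf, a receptor phosphatase that acts on the insulin receptor, was at 133 ± 18.4 CPM on LD and 195 ± 29.0 on CD (log2 fold change -0.55, edgeR adjusted p = 0.00397). Ceacam1, which promotes insulin clearance by the liver, was at 58.8 ± 4.63 and 83.5 ± 4.65 CPM (-0.51, edgeR adjusted p = 0.000205). Grb14, an adaptor that inhibits the receptor, was at 50.6 ± 6.80 and 65.8 ± 3.04 CPM (-0.38, edgeR adjusted p = 0.00583), and Grb7, which overlapped between the diets, fell by 0.40 on the log2 scale.

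Of 8 genes for PI3-kinase and the lipid phosphatases, Pik3cd alone was called (0.44, higher on LD, overlapping). Of 19 for Akt, mTOR and their substrates, 2 were lower on LD: the mTORC2 subunit Rictor (-0.47, overlapping) and the Akt phosphatase Phlpp1 (23.0 ± 2.39 against 28.5 ± 3.15 CPM, log2 fold change -0.31, edgeR adjusted p = 0.0232). The call of Phlpp1 was lost without LD mouse 2, CD mouse 4 or CD mouse 5 (adjusted p = 0.05004, 0.0595 and 0.0627).

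FoxO factors and their targets went both ways, with 3 of 17 higher and 3 lower on LD. G6pc, the last enzyme of glucose production, was at 252 ± 40.3 CPM on LD and 578 ± 200.3 on CD (log2 fold change -1.20, edgeR adjusted p = 0.00244). Ppargc1a, a coactivator of gluconeogenic genes, was at 6.63 ± 0.474 and 10.99 ± 1.84 CPM (-0.73, edgeR adjusted p = 0.000701), and the ubiquitin ligase Fbxo32 fell by 0.49 on the log2 scale with overlap. Among those higher on LD were Pdk4, which shuts pyruvate out of the mitochondrion's oxidation (17.0 ± 5.05 against 7.88 ± 2.70 CPM, log2 fold change 1.11, edgeR adjusted p = 0.0120), and Txnip, an inhibitor of thioredoxin (151 ± 13.9 against 119 ± 4.53 CPM, 0.34, edgeR adjusted p = 0.00339).

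In the IGF and growth hormone axis, 3 of 17 were lower and 2 higher on LD. Igf1, the ligand that the Igfbp proteins bind, was at 310 ± 54.9 CPM on LD and 488 ± 43.5 on CD (log2 fold change -0.66, edgeR adjusted p = 0.000943). Its inducer, the growth hormone receptor Ghr, was at 639 ± 59.8 and 800 ± 60.6 CPM (-0.32, edgeR adjusted p = 0.0103). Socs7 fell by 0.32 on the log2 scale, and Igfbp7 and Stat5a were higher on LD by 0.38 and 0.49, each of these 3 with overlap. Of 8 genes for Tribbles and the ATF4 response, Atf4, which induces Trib3, was the called one (91.7 ± 6.24 against 118 ± 7.54 CPM, log2 fold change -0.37, edgeR adjusted p = 0.00162). In the test against a fold change of 1.2, the calls of Ghr, Grb14, Atf4, Txnip and Phlpp1 were lost (edgeR glmTreat adjusted p = 0.371, 0.182, 0.140, 0.241 and 0.466). Those of Ghr, Grb14 and Phlpp1 were also lost with limma on log2(TPM + 1), where Ghr had an adjusted p of 0.0487 and a fold change below 1.2.

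H3K27ac marks active promoters and enhancers, and the deposited files hold the intervals of enriched signal in each sample, with no heights. Intervals covered 155.8, 160.4 and 149.8 Mb in LD samples 1 to 3 and 141.7, 145.4 and 139.7 Mb in CD samples 1 to 3, so that the LD lists were longer as a whole. The start sites of all 10 genes lay in an interval present in all 6 samples. Of 53 loci within 20 kb of the 10 genes, 39 were present in all 6 samples, and 0 were present in all samples of 1 diet and none of the other, where 3.89% of all loci were. The share of each gene and 20 kb on either side that was covered was compared between the diets with limma.

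**Figure D3:**
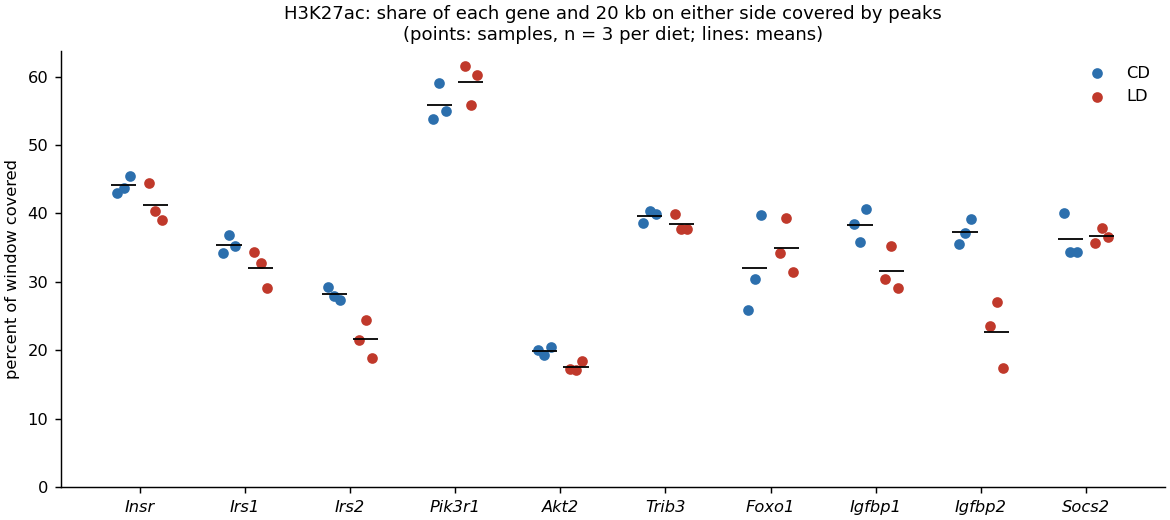
Percent of each gene and 20 kb on either side covered by H3K27ac intervals, with points for samples (n = 3 per diet, CD blue, LD red) and lines for means, on an axis from 0. Igfbp2 has the widest gap, and the diets do not overlap for Irs2, Akt2, Igfbp1 and Igfbp2.

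Coverage at Igfbp2 was lower on LD, as its RNA was. It was 23.5%, 27.1% and 17.4% in LD samples 1 to 3 and 35.6%, 37.1% and 39.1% in CD samples 1 to 3. The difference of -14.6 percentage points (SE 2.68, limma adjusted p = 0.0348) was the 1 call among the 10 genes, beside 4.62% of the 18730 gene windows tested. Of the windows called, 756 were higher and 109 lower on LD. The median difference over all windows was 0.80 points. The Igfbp2 window also holds part of Igfbp5. Leaving out 1 sample ended this call in 5 of 6 cases (all but LD sample 2, adjusted p = 0.0550 to 0.113), as did blocking on replicate numbers (0.0742), while the difference lay between -15.4 and -11.96 points in those 5.

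At Irs2, the LD samples had a coverage of 21.5%, 24.4% and 18.9%, and the CD samples had 29.3%, 28.0% and 27.3%. The diets did not overlap, but the difference of -6.62 points did not pass (limma adjusted p = 0.0885). It did pass when coverage was scaled to the total of each sample (-8.87 points, adjusted p = 0.0376). Igfbp1 had 30.4%, 35.3% and 29.0% on LD against 38.4%, 35.7% and 40.7% on CD (-6.70 points, limma adjusted p = 0.148). Akt2 had 17.3%, 17.1% and 18.4% against 20.02%, 19.3% and 20.5% (-2.35 points, limma adjusted p = 0.309). In these 2 genes as well, each LD sample lay below each CD sample. How many of all windows failed to overlap was not counted, so the number of such genes carries no weight here. For the other 6 genes the diets overlapped, with differences from -3.32 points at Irs1 to 3.30 points at Pik3r1 and limma adjusted p between 0.373 and 0.928.

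Hnf4α, a nuclear receptor of hepatocytes, and C/EBPα, a leucine zipper factor, bind many liver enhancers. Heights are the tag counts of a peak scaled by the authors' peak caller to a common library size. The Hnf4α samples did not group by diet: CD sample 1 had the fewest peaks (35143) and the lowest median height (15.2), CD sample 2 had the most (47992) and the highest (21.5), and LD samples 1 and 2 lay between (46363 and 44247 peaks, medians 19.2 and 19.5). For C/EBPα, the lists held 38281 and 39310 peaks on LD and 41713 and 46371 on CD, with median heights of 11.5, 12.5, 13 and 8.5. Log2 heights were therefore centred on the median of each sample and compared with limma at loci with a peak in all 4 samples. Without centring, limma called no locus near the 10 genes for either factor (0 Hnf4α and 11 C/EBPα loci had an unadjusted p under 0.05). Over all loci, it then called 0 of 23344 for Hnf4α and 463 of 13813 for C/EBPα. Each call below thus rests on centring, and raw heights are given with each. With 2 samples per diet, the fit takes its spread mostly from the other loci, and where 1 sample was left out, the lone sample was assumed to vary like the others.

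Near the 10 genes lay 48 Hnf4α loci with a peak in all 4 samples, and 3 of them were called, beside 6.54% of all such loci. Of the 48, 32 were lower on LD after centring and 24 without it, beside 12691 and 8036 of all 23344 loci. The tallest was in the Insr intron shown above, 22769 bp into the gene, with heights of 540 and 399 on LD and 373 and 703 on CD. It was in the 99.99th percentile of the heights of all loci. The CD samples enclosed the LD samples, and the centred difference of -0.33 did not pass (limma adjusted p = 0.0795).

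The first call was upstream of Insr, at chr8:3288623-3288941 (-9006 bp, between genes), with heights of 27 and 24 on LD and 7.75 and 15.5 on CD. Both LD samples were above both CD samples, and the log2 difference was 1.02 (SE 0.287, limma adjusted p = 0.0377). In an Irs1 intron, at chr1:82234883-82235150 (52864 bp into the gene), heights were 48.5 and 55.5 on LD and 14.8 and 40.8 on CD (0.89, limma adjusted p = 0.0270), again without overlap. At Igfbp2, the locus shown above had 61.2 and 53.2 on LD and 54.5 and 119 on CD (-0.69, limma adjusted p = 0.0224). There the diets overlapped in raw height, as CD sample 1 lay between the LD samples and CD sample 2 alone was above them. The 2 loci higher on LD were thus at genes with less RNA on LD. The Insr call was lost without any 1 sample (limma adjusted p = 0.0737 to 0.133), the Irs1 call without LD sample 2 or CD sample 1 (0.178 and 0.124), and the Igfbp2 call without LD sample 2 or CD sample 2 (0.120 and 0.105).

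Within 2 kb of a start site, 9 loci had a Hnf4α peak in all 4 samples, and the raw heights overlapped between the diets in each. Igfbp1 had 110.5 and 86.5 on LD and 68.2 and 142 on CD at -88 bp, in the locus that covers the CAAAACAA of its promoter. Irs2 had 135 and 104.5 against 76 and 188 at -1383 bp, Akt2 93.2 and 88 against 58 and 155 at 1760 bp, Foxo1 66 and 55 against 49.5 and 72 at 363 bp, and Insr 43 and 33.2 against 29.2 and 47.5 at 67 bp. In these 5 loci CD sample 1 was the lowest and CD sample 2 the highest. This order did not hold in the other 4, with 85 and 60 against 43.2 and 71.5 in Insr at 930 bp, 37.8 and 34.8 against 35.2 and 61.8 in Foxo1 at 1627 bp, and 24.8 and 19 against 21.8 and 24 at -986 bp and 58.2 and 39.5 against 42.5 and 66.5 at -1825 bp from Socs2. Within the same distance, other loci of Irs1, Pik3r1, Trib3 and Socs2 had a peak in 1 to 3 samples. Farther away, besides the Insr intron, lay the tallest loci found in all 4 samples (by mean raw height) for 7 other genes. The one of Igfbp1 is shown above (113.8 and 91.5 on LD, 79 and 163 on CD), and the others were in Foxo1 at 22508 bp (115 and 92.5 against 38.2 and 101.8), in Irs1 at 43601 bp (83.2 and 85.5 against 65.5 and 117), and upstream of Socs2 at -9444 bp (91.5 and 72.8 against 50.2 and 139.2), Igfbp2 at -14892 bp (64.5 and 55.8 against 47.8 and 135.5), Trib3 at -15654 bp (45.5 and 38.2 against 46.2 and 65) and Pik3r1 at -16516 bp (42 and 43.8 against 24.5 and 64.5). None of these 7 was called. In Trib3 both LD samples lay below both CD samples, and in the other 6 the diets overlapped. By gene, the Hnf4α loci lower on LD after centring were 4 of 4 at Trib3, 4 of 4 at Socs2, 3 of 3 at Igfbp2, 1 of 1 at Akt2, 3 of 4 at Irs2, 2 of 3 at Igfbp1, 7 of 12 at Insr, 4 of 7 at Pik3r1, 3 of 6 at Foxo1 and 1 of 4 at Irs1. These counts were the same without centring for Trib3, Socs2, Igfbp2, Akt2, Igfbp1 and Irs1, and lower for the other 4 genes.

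Of the 90 Hnf4α loci near the 10 genes that 2 or more samples shared, 5 were in both LD samples only and 2 in both CD samples only, beside 11.4% of all loci that were on 1 diet only. Igfbp2 had 1 of each within its promoter region: chr1:72870567-72870904 at -150 bp with heights of 9 and 15.5 on CD, and chr1:72870997-72871215 at the start site with 11 and 7.25 on LD. The other LD loci were near Irs1 (4 and 5.75), Trib3 (12.2 and 13), Foxo1 (12.5 and 10.5) and Socs2 (23.5 and 20.8), and the other CD locus was upstream of Pik3r1 (8.5 and 14.5). All but the Socs2 locus were below the median height of their samples.

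**Figure D4:**
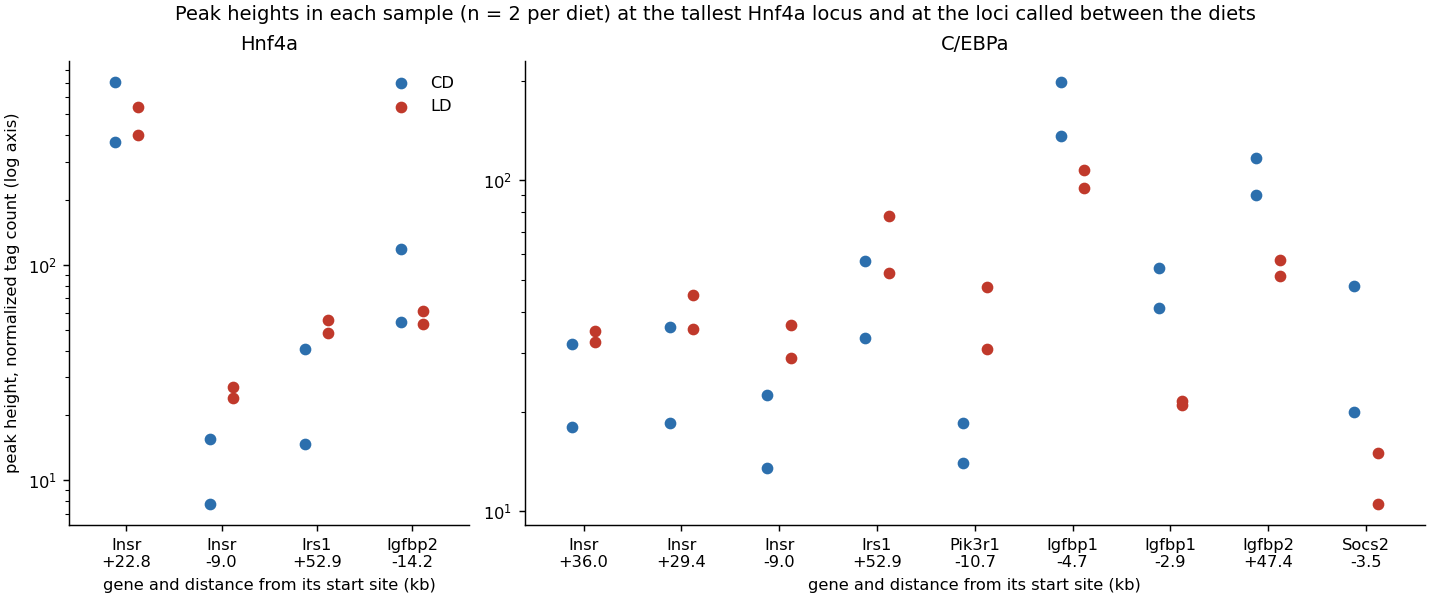
Peak heights in each sample on a log axis (normalized tag count, not centred) at the tallest Hnf4α locus and at every called locus near the 10 genes, labelled by gene and distance from its start site in kb, with CD in blue and LD in red (n = 2 per diet). The locus upstream of Insr is higher in both LD samples for both factors, and the Igfbp1 loci are lower in both LD samples for C/EBPα.

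For C/EBPα, 9 of the 32 loci found in all 4 samples were called, beside 19.8% of all such loci. Of the 32, 19 were lower on LD after centring and 23 without it, beside 7954 and 10460 of all 13813 loci. Insr held 3 of the calls, all higher on LD. The locus at -8982 bp (chr8:3288599-3288936), which overlaps the called Hnf4α locus, had heights of 36.5 and 29 on LD and 22.5 and 13.5 on CD (log2 difference 1.21, limma adjusted p = 0.00192). An intronic locus at chr8:3243270-3243585 had 35 and 32.5 against 32 and 18 (0.80, limma adjusted p = 0.0347), and another at chr8:3249913-3250260 had 35.5 and 45 against 36 and 18.5 (0.94, limma adjusted p = 0.00737). Raw heights did not overlap in the former and overlapped in the latter. The upstream call was lost without LD sample 1 (limma adjusted p = 0.0553), the former intronic call without any 1 sample (0.0593 to 0.231) and the latter without LD sample 2 or CD sample 2 (0.0916 and 0.142).

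At Irs1, the intronic locus chr1:82234783-82235097, which overlaps the called Hnf4α locus, had 52.5 and 78 on LD and 57 and 33.5 on CD (0.86, limma adjusted p = 0.00266), with overlap, and the call was lost without LD sample 2 (0.124). Upstream of Pik3r1, chr13:102548873-102549370 (-10701 bp) had 31 and 47.5 on LD and 18.5 and 14 on CD. It did not overlap and had the smallest adjusted p-value of the set (1.56, limma adjusted p = 3.64e-05), at a gene whose RNA did not pass. This call was kept without any 1 sample.

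The remaining calls were lower on LD. The sequence shown above for Igfbp1 overlaps the highest C/EBPα locus of the set, chr11:7092760-7093082, in the 98.9th percentile of all loci, with heights of 95 and 107.5 on LD and 198 and 136.5 on CD (-0.39, limma adjusted p = 0.0377). Nearer the start site, chr11:7094565-7094893 (-2897 bp) had 21 and 21.5 against 54.5 and 41 (-0.85, limma adjusted p = 0.0170). Beyond the end of Igfbp2, in an intron of Igfbp5, chr1:72918467-72918781 had 51.5 and 57.5 against 116.5 and 90 (-0.60, limma adjusted p = 0.0132). Upstream of Socs2, in an intron of a neighbouring transcript, chr10:94882952-94883292 (-3461 bp) had 15 and 10.5 against 48 and 20 (-0.996, limma adjusted p = 0.0212). Each of these 4 was lower in both LD samples than in both CD samples before centring. The higher Igfbp1 locus lost its call without any 1 sample (limma adjusted p = 0.0822 to 0.191), when blocked by number (0.0629) and after quantile normalisation (0.555), and the nearer one without LD sample 2, CD sample 1 or CD sample 2 (0.0518, 0.0609 and 0.202). The Igfbp2 call was lost without LD sample 1 or CD sample 2 (0.0645 and 0.208) and after quantile normalisation (0.0758). The Socs2 call was lost without LD sample 2 or CD sample 1 (0.193 and 0.344), with a difference of -0.66 in the latter fit.

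By gene, the C/EBPα loci lower on LD after centring were 4 of 4 at Trib3, 4 of 4 at Socs2, 2 of 2 at Irs2, 2 of 2 at Igfbp1, 1 of 2 at Igfbp2, 3 of 7 at Pik3r1, 2 of 6 at Insr, 1 of 3 at Foxo1, 0 of 1 at Irs1 and 0 of 1 at Akt2. Without centring these counts were 2 of 2 at Igfbp2, 4 of 7 at Pik3r1, 3 of 6 at Insr and 1 of 1 at Akt2, and the same for the other 6 genes. Within 2 kb of a start site, 3 loci had a C/EBPα peak in all 4 samples, each lower in both LD samples before centring, and none passed. Before centring, 10460 of all 13813 loci were lower on LD, and the share lower in both LD samples was not counted. The locus over the Trib3 start site had 35 and 55.5 on LD and 86.5 and 71 on CD (limma adjusted p = 0.0705), Foxo1 at -503 bp had 17 and 17 against 37.5 and 26.5 (0.173), and Socs2 at -1023 bp had 31.5 and 30.5 against 67.5 and 45 (0.117). The Trib3 and Socs2 loci were also the tallest in all 4 samples for these genes. The tallest such loci not yet given were in Pik3r1 at 29115 bp (71 and 81 against 110.5 and 102), beyond Irs2 at 33962 bp (68.5 and 73 against 150.5 and 85), in Insr at 46703 bp (59.5 and 66.5 against 86 and 52.5), in Foxo1 at 74926 bp (40.5 and 46 against 44 and 41) and beyond Akt2 at 62978 bp (12.5 and 9 against 12 and 10.5), and none was called.

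Of the 64 C/EBPα loci that 2 or more samples shared, 10 were in both LD samples only and 3 in both CD samples only, beside 20.5% of all loci on 1 diet only. The tallest was the Irs1 locus shown above, with heights of 83 and 89 on LD and no peak in either CD sample. Upstream of Socs2 there were 2 LD loci, at -12344 bp (43 and 41.5) and at -2955 bp (21 and 18). The latter lies beside the locus at -3461 bp that was higher on CD. Akt2 had an LD locus at -96 bp (8 and 6.5) and a CD locus at 11286 bp (22 and 22.5). The other LD loci were near Insr (2), Irs2 (1), Pik3r1 (2) and Foxo1 (1), with heights from 6.5 to 20, and the other CD loci were both in Pik3r1 (13 and 13.5, 25.5 and 12).

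PCHi-C reads which fragments contact a captured promoter (the bait), and the deposited list of each diet holds the contacts with a CHiCAGO score of at least 5. As replicates were pooled into 1 list per diet, no test between the diets was possible and the numbers carry no error. The 10 genes had 12 baits (2 each for Pik3r1 and Socs2) with 416 interactions, of which 265 were on both lists, 51 on the LD list only and 100 on the CD list only. The share on 1 list only was 36.3%, and over all 195919 interactions it was 46.4%, with 46121 on the LD list only and 44716 on the CD list only. Of the 100 on the CD list only, Irs2 had 27, Irs1 25, Socs2 17 and Foxo1 15. Of the 51 on the LD list only, Foxo1 had 18, Irs1 15, and Irs2 and Socs2 3 each.

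**Figure D5:**
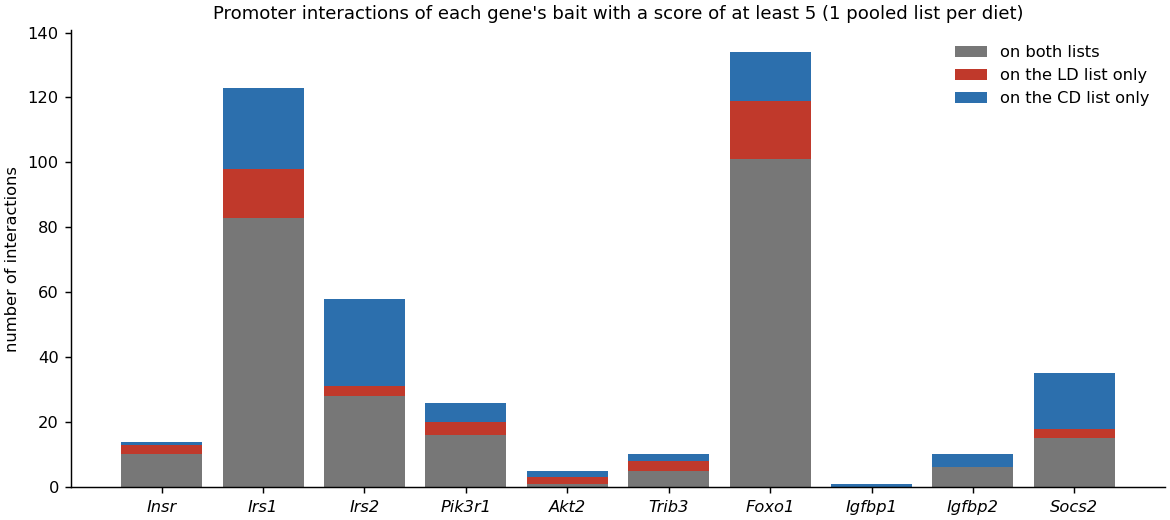
Number of promoter interactions of each gene with a score of at least 5, stacked as on both lists (grey), on the LD list only (red) and on the CD list only (blue), from 1 pooled list per diet. Foxo1 and Irs1 have the most, and Irs2 and Socs2 have more on the CD list only (27 and 17) than on the LD list only (3 each).

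Foxo1 and Irs1 were among the genes with the most contacts. Foxo1 had 119 on the LD list and 116 on the CD list, 101 of them shared, and Irs1 had 98 and 108 with 83 shared, where the median gene had 4 on each. Irs2 had 31 on LD and 55 on CD, with 28 shared, 3 on the LD list only and 27 on the CD list only. Its difference in number was in the 99.6th percentile of 17001 genes, that of Socs2 (18 and 32) in the 97.9th and that of Irs1 in the 95.5th. These ranks use the absolute difference, which can be larger where a gene has many contacts. For number of contacts, Irs2, Socs2 and Irs1 were in the 96.5th, 90.5th and 99.7th percentile. The Irs2 contacts on 1 list only had scores between 5.01 and 7.93, near the minimum. When another contact of the same bait within 10 kb counted as the same, 1 stayed on the LD list only and 12 on the CD list only. At a score of at least 10, Irs2 had 8 on LD and 11 on CD, 5 of them shared.

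Among all genes, Pik3r1 and Insr were in the 87.6th and 75.8th percentile for their number of contacts. Insr had 13 and 11 (10 shared), Pik3r1 20 and 22 (16 shared), Trib3 8 and 7 (5 shared), Akt2 3 and 3 (1 shared), Igfbp2 6 and 10 (6 shared), and Igfbp1 0 and 1. The single Igfbp1 contact, on the CD list with a score of 7.71, reached a fragment at Gm11978. Igfbp2 had 4 contacts on the CD list only, with scores from 5.2 to 6.07, and 0 on the LD list only. Its highest score went the other way, with 10.61 on LD and 8.26 on CD for a fragment 1001 kb downstream, which also had its largest difference in score. At a score of at least 10, Igfbp2 had 1 contact on LD and 0 on CD.

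The contact with the highest score of the set joined Irs1 to a fragment 978 kb downstream (chr1:81309282-81309750), with a score of 30.56 on LD and 32.34 on CD and with no H3K27ac, Hnf4α or C/EBPα peak at the far end. For Foxo1 it was 492 kb downstream (27.35 on LD, 32.29 on CD), for Irs2 430 kb downstream (19.55 and 18.88) and for Pik3r1 898 kb upstream (18.16 and 22.11), the last with H3K27ac in all 6 samples at the far end. Akt2 shared 1 contact between the lists, to the fragment of Snrpa and BC024978 397 kb upstream, and its score was 9.06 on LD and 17.88 on CD. This was the largest score difference on both lists among the 10 genes. The far end held H3K27ac in all 6 samples and Hnf4α in all 4. Socs2 followed, with 7.92 on LD and 14.92 on CD for a fragment 429 kb downstream that held H3K27ac in all 6 samples, Hnf4α in both LD samples only and C/EBPα in all 4. In the other direction, Foxo1 had a contact 586 kb downstream with 17.13 on LD and 10.38 on CD. The largest differences of 4 other genes were also higher on LD, each at a far end downstream except that of Pik3r1. These were 14.57 against 8.88 for Irs2 at 418 kb, 10.19 against 5.12 for Pik3r1 at 879 kb, 9.97 against 5.36 for Irs1 at 603 kb and 8.94 against 5.08 for Insr at 106 kb. Over the shared interactions of all baits, the score was higher on LD in 47.4% (median difference, LD minus CD, -0.11). Counted over all shared contacts of a gene, it was higher on LD in 61 of 101 for Foxo1, 47 of 83 for Irs1, 6 of 10 for Insr, 3 of 5 for Trib3 and 3 of 6 for Igfbp2. It was higher on CD in 19 of 28 for Irs2 (median difference, LD minus CD, -0.845), 11 of 16 for Pik3r1 (-0.71), 11 of 15 for Socs2 (-1.4) and the single one of Akt2, so that the largest difference of Irs2 and of Pik3r1 went against most of their contacts.

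Trib3 reached Tbc1d20 (21.48 on LD, 18.94 on CD) and Csnk2a1 (14.89 and 20.28), Socs2 reached Cradd (14.36 and 18.03), and each of these 3 far ends held H3K27ac in all 6 samples. The highest score of Insr was 11.48 on LD and 8.44 on CD, for a fragment 88.6 kb downstream within the gene. Over all 416 interactions, the far end held H3K27ac in all 6 samples for 66 and in none for 292, Hnf4α in all 4 samples for 35 and C/EBPα in all 4 for 30. Irs1 and Foxo1, with their many contacts, accounted for 115 and 100 of the 292.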

How the data were processed

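Groups were taken from the labels, which name a high fat (LD) and a low fat (CD) diet. The authors aligned RNA reads to mm9 with STAR 2.5, counted them by strand with featureCounts 1.5.0-p1 and deposited raw counts and TPM. The ChIP peaks were called by the authors in each sample against its input: H3K27ac intervals with SICER, and Hnf4α and C/EBPα peaks with HOMER, whose deposited signal is a peak height, tags normalized for library size. For PCHi-C, 1 CHiCAGO score per interaction, made by the authors from pooled replicates, is deposited for each diet. Fold changes and p-values of the authors' own comparison were not used, nor were the lists of topological domains. The TPM table has 1 CD column whose number matches no label, and it was used as a CD mouse without a number.

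Counts were tested with edgeR 4.0.16 (TMM, filterByExpr, robust quasi-likelihood) in R 4.3.3, and coverage and log2 heights with limma 3.58.1. Peak lists and sequences were read in Python 3.11.15 with pandas 2.3.3. Overlapping peaks formed 1 locus, assigned to a gene when within 20 kb of its body. Alternatives were DESeq2 1.42.0, its size factors, 2 other filters, a test against a fold change of 1.2, limma on log2(TPM + 1) and log2(TPM + 0.1), a replicate block, other windows, scalings, overlaps and height minimums, and each sample left out. Quantile normalisation was added after the data were seen. Steps were tested on simulated data.

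All 10 members were named, with the called pathway genes whose diets did not overlap and whose mean reached 1 CPM, the called loci, those within 2 kb of a start site in all samples or on 1 diet only, the highest locus in all samples per gene and factor, and for each bait the interaction with the highest score and the one with the largest difference. Genes named beyond these were called and overlapped between the diets. Of the called pathway genes, 2 are counted but not reported here. The members and lists were chosen with earlier results of these data known. RNA libraries held 31707963 to 39012699 counted read pairs. Peak and interaction lists give no depth.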

Additional observations from a re-analysis of the deposited data

Results flagged for a closer look

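Igfbp1 in LD mouse 4 was flagged because its 13.9 CPM was far below the other 4 LD mice, which lay between 22.3 and 24.9 CPM. The gap to the next mouse was 0.768 of the range of the group, above the limit of 0.71 that Dixon's test sets for 5 values. Over the 20 groups of 5 mice that were checked, chance alone flags about 1 in 20. Igfbp1 was not called between the diets with this mouse or without it.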

How the results depend on the processing

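Of the 10 genes, 5 were called with DESeq2, DESeq2's size factors, both other filters and the replicate block. The test against a fold change of 1.2 called 3, limma on log2(TPM + 1) called 2 and on log2(TPM + 0.1) called 3, and leaving out 1 mouse gave 5 to 6. Irs2 and Igfbp2 were called in all 18 alternatives. The pathway list had 20 calls, 24 with DESeq2, 21 with the replicate block and 7 in the test against a fold change of 1.2, and 17 to 22 without 1 mouse. Without CD mouse 1, the log2 fold change of Pik3r1 turned to -0.029, and it lay between that and 0.136 over all mice left out. Same-numbered samples did not deviate together (correlations of -0.13, 0.23, 0.05, 0.02 and -0.03 in RNA-seq, -0.18, 0.15 and -0.16 for H3K27ac, 0.015 for Hnf4α and -0.047 for C/EBPα), so the replicate block pairs samples by number only.

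H3K27ac coverage was called at 1 gene, at 2 after scaling to the total covered length, at 0 with the replicate block (limma; 2 genes at an unadjusted p under 0.05), and at 0 to 1 without 1 sample. The sign of a difference that had not passed turned for Pik3r1 within 20 kb of the start site (-4.50 points) and after scaling (-1.66), for Foxo1 after scaling (-0.10) and without CD sample 1 (-0.14), and for Socs2 after scaling (-2.77), without LD sample 2 (-0.15) and without CD sample 2 or 3 (-0.51 each). Leaving out 1 sample took the Foxo1 difference up to 6.84 points and that of Socs2 up to 2.35 points.

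Hnf4α calls near the 10 genes numbered 3, 0 without centring and 7 with the replicate block. Over all 23344 loci they numbered 1526, 0 and 2691. The median log2 difference of the Hnf4α loci near the 10 genes, -0.19 with centring, was 0.0019 without it, where that of all loci moved from -0.04 to 0.15. C/EBPα calls numbered 9, 0 without centring, 5 for loci within 20 kb of the start site, 8 with the replicate block and 4 to 6 without 1 sample, and the median of all loci moved from -0.10 to -0.41 without centring. The cause of these changes was not tested. The share of interactions on 1 list only was 36.3%, and 12.02% when contacts within 10 kb were matched. It changed little when both lists were cut at a score of at least 10. Contacts on 1 list only with a score of at least 10 there made up 0.721% of all 416. Contacts on 1 list only had a median score of 5.88, beside 5.73 over all interactions. The lists give no depth, so small differences in height or score could not be bounded.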

Other observations

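H3K27ac intervals found in some samples of a diet only were not compared with a test. An interval in the Insr gene body (chr8:3201001-3203200) was present in 3 LD samples and 1 CD sample, and one in Foxo1 (chr3:52115401-52118000) was likewise in 3 and 1. Beyond the end of Igfbp1, chr11:7102801-7104600 was present in 1 LD sample and 3 CD samples. At the end of Pik3r1, chr13:102449601-102451200 was present in 2 LD samples and 0 CD samples. Foxo1, with 13 intervals, had the most of the 10 genes and also the most in part of the samples (7).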
